A study of Mus musculus with 28 samples.

Results

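The genes described here are the mitochondrially encoded genes measured in mouse pancreatic islets. A gene entered by its symbol in the authors' table (ND1, ND2, ND4, ND5, ND6, COX1 and CYTB) or, where the table gave no symbol, by its Ensembl ID (mt-Rnr1 and mt-Rnr2). All 9 were found, among 14219 listed genes, and all 9 passed the filter on low values. RNA of hand-picked islets from 28 male mice was sequenced, with a separate library for each mouse, and the labels form 4 groups. Klf6 is a zinc finger transcription factor. In the βKlf6KO mice (Klf6flox/flox;Ins1Cre/+) Cre recombinase is expressed from one Ins1 allele, which acts in β cells, and both Klf6 alleles are flanked by loxP sites. Control mice (Klf6flox/flox;Ins1+/+) carried the same floxed alleles and no Cre, so an effect of Cre or of the changed Ins1 allele cannot be told apart from loss of Klf6. Other islet cells keep Klf6 in both genotypes. S961 is a peptide that blocks the insulin receptor, and saline was given in its place. There were 8 libraries of βKlf6KO S961 islets, 6 of βKlf6KO saline islets, 8 of control S961 islets and 6 of control saline islets. All mice were 10 to 12 weeks old, on a C57Bl6 and 129sv background, and islets stayed in culture overnight before RNA was taken from 120 to 150 islets of each mouse, with quality numbers of 8.2 to 9.3. The study compared βKlf6KO with control islets under each treatment.

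The mitochondrial genome is a small circle of DNA inside the mitochondrion. It holds 37 annotated genes, of which 13 encode proteins of the respiratory chain and ATP synthase, 22 encode transfer RNAs and 2 encode the ribosomal RNAs of the mitochondrial ribosome. Both strands are transcribed into long precursors, the transfer RNAs are cut out, and most of the messengers and ribosomal RNAs left between them receive short tails of A. In β cells the ATP that mitochondria make from glucose closes potassium channels and so leads to insulin release.

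The genotype labels carry a doubt, since Klf6 itself did not follow them. Its log2 difference, βKlf6KO minus control, was 0.28 ± 0.25 after S961 (SE; limma adjusted p = 0.517) and -0.03 ± 0.29 after saline (limma adjusted p = 0.974). The Klf6 row counts the whole gene, so it may also hold RNA of a recombined allele that lacks only the floxed part, and RNA of other islet cells. Groups are therefore named by their labels throughout. β-cell markers were present in every library, with summed levels of 58341 to 226027 CPM (reads scaled to library size) over 10 genes, and so were markers of acinar cells, at 5216 to 91986 CPM over 8. Reads over listed genes ran from 28868638 to 45001633 per library, at which 3 reads, the most that a count of 0 allows, equal 0.0667 to 0.104 CPM. That limit covers counting error only. Libraries control S961 replicate 2, control saline replicate 4 and control S961 replicate 8 stood apart along the first principal component, which held 54.9% of the variance, and results that rest on them are given with and without them.

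The 9 genes lie on chromosome M of GRCm38. In the order of the genome, mt-Rnr1 (70 to 1024) and mt-Rnr2 (1094 to 2675) encode the small and the large mitochondrial ribosomal RNA. They are followed by ND1 (2751 to 3707), ND2 (3914 to 4951), COX1 (5328 to 6872), ND4 (10167 to 11544), ND5 (11742 to 13565) and CYTB (14145 to 15288), all on the plus strand. ND6 (13552 to 14070) lies on the minus strand, and is the protein gene of the genome that is read in the opposite direction. ND1, ND2, ND4, ND5 and ND6 are subunits of complex I, which passes electrons from NADH to ubiquinone. CYTB is the cytochrome b of complex III, and COX1 is the catalytic subunit of complex IV, where oxygen is reduced.

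Some neighboring genes on chromosome M share bases. ND2 ends in a stop codon whose final bases are the start of the tryptophan transfer RNA mt-Tw, and ND1 does the same with the isoleucine transfer RNA mt-Ti. These junctions are shown because both transfer RNA rows are listed in the table and enter the results. The libraries were made from polyadenylated RNA, per the labels' protocols. All sequences are those of GENCODE M21 transcripts on GRCm38, 5′ to 3′, with the 2 shared bases in capitals, at chrM:4922-4951 for the end of ND2, chrM:4950-5016 for mt-Tw, chrM:3678-3707 for the end of ND1 and chrM:3706-3774 for mt-Ti.
ND2 end: ctacccctagccccccaactaattacctAG
mt-Tw: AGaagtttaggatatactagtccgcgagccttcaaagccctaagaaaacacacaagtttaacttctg
ND1 end: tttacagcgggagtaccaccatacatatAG
mt-Ti: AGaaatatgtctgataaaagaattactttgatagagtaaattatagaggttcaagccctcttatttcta

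Both transfer RNAs, of 67 and 69 bases, are shorter than the 125-base reads, and the sources used here do not state how reads that span 2 genes were counted. ND5 and ND6 overlap on opposite strands by 14 bases, in capitals below (chrM:13536-13565 plus strand and chrM:13552-13581 minus strand). They do not state how the strand of a read entered the counting either, so ND6 reads cannot be told apart from reads of the RNA that runs opposite to it.
ND5 end: attatcttatactcaaTTAATCTCGAGTAA
ND6 end: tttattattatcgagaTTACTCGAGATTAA

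ND4 and CYTB end without a full stop codon in the genome. Each transcript closes with a T beyond its last whole codon, in capitals below (chrM:11515-11544 and chrM:15259-15288, plus strand). In mammalian mitochondria the tail of A added after such an end completes the stop codon.
ND4 end: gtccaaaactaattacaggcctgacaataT
CYTB end: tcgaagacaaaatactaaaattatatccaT

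The members share a low GC content, from 34.1% in ND6 to 39.9% in COX1, against a median of 49.2% over 14210 listed genes with a transcript. They differ in runs of A inside the gene, to which the oligo(dT) used to select polyadenylated RNA can also bind. A run of at least 6 A occurs 4 times in mt-Rnr2, 3 times in ND2, 2 times each in ND4 and ND5, 1 time each in ND1 and COX1, and not in ND6, CYTB or mt-Rnr1. Of listed transcripts at least as long as mt-Rnr2, 36.4% hold such a run in a first stretch of that length, and for the lengths of ND2 and ND6 the shares are 24.9% and 11.8%. The longest runs of ND2 (chrM:4036-4075) and mt-Rnr2 (chrM:1472-1510) are set beside those of mt-Rnr1 (chrM:688-726) and ND6 (chrM:13988-14026, minus strand), with the run in capitals, because ND2 and mt-Rnr2 had the lowest differences in the saline comparison and ND6 the lowest level. The runs shown were thus chosen by those values. The longest run is 7 A in ND4, ND5 and COX1 too, as in mt-Rnr2, and 6 A in ND1. After saline ND4, ND5, COX1 and ND1 differed by -0.54, -0.61, -0.42 and -0.57 on the log2 scale. Without a run of 6 A, mt-Rnr1, CYTB and ND6 differed by -0.55, -0.49 and -0.19. Any part of these runs in the measured levels was not tested.
ND2 run: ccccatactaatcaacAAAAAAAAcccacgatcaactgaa
mt-Rnr2 run: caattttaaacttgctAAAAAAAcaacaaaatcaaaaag
mt-Rnr1 run: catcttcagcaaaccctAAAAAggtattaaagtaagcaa
ND6 run: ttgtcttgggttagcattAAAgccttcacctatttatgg

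Together the 9 genes took 0.795% to 3.94% of the listed reads of a library. The lowest, median and highest shares were 0.795%, 1.37% and 2.76% in βKlf6KO S961 islets, 1.02%, 1.31% and 1.53% in βKlf6KO saline islets, 1.24%, 1.72% and 3.94% in control S961 islets and 1.39%, 1.62% and 3.58% in control saline islets. The groups overlapped, and the 3 highest libraries (3.94%, 3.58% and 3.34%) were the 3 that stood apart on the first component. In bulk islets fewer cells of a type and less RNA per cell cannot be told apart.

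Set against gene length, the messengers of COX1 and CYTB stood highest and ND6 lowest. Over 28 libraries COX1 averaged 3240 ± 1667 CPM per kilobase (SD), CYTB 3038 ± 1486, ND1 2446 ± 1300, ND2 2021 ± 1246, ND5 1310 ± 725 and ND4 870 ± 414. The ribosomal RNAs were lower, mt-Rnr2 at 435 ± 198 and mt-Rnr1 at 209 ± 86.1, in libraries selected for polyadenylated RNA, whose yield of ribosomal RNA is not known here. ND6 averaged 4.66 ± 2.89 CPM per kilobase. Each gene was above the next in this order in 28 of 28 libraries, except that COX1 was above CYTB in 26 of 28, with a mean log2 ratio of 0.09 ± 0.08. In COX1 the mean level per kilobase was 2807 ± 1144 in βKlf6KO S961, 2471 ± 395 in βKlf6KO saline, 4056 ± 2404 in control S961 and 3498 ± 1662 in control saline islets.

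**Figure D1:**
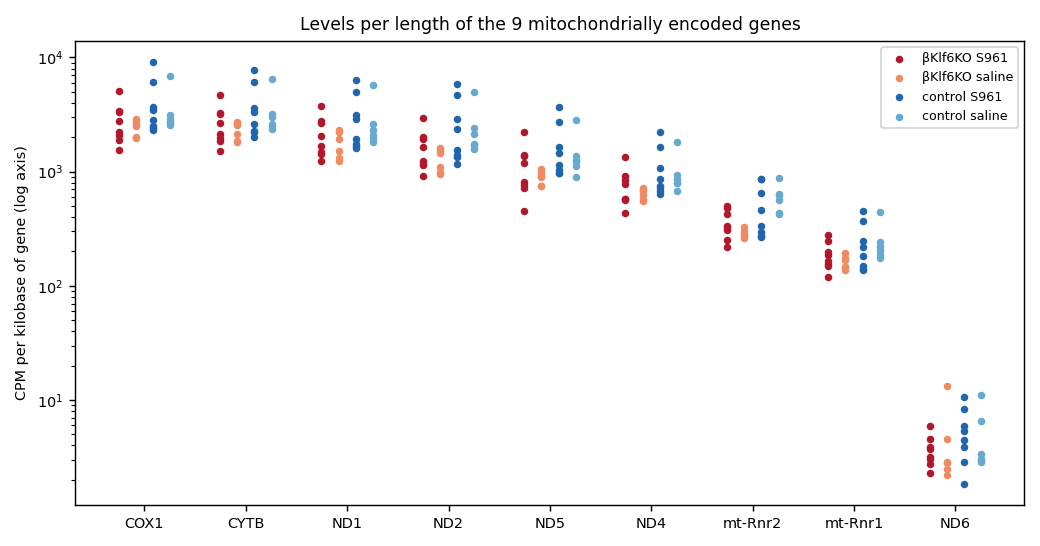
CPM per kilobase of gene (log axis) for the 9 mitochondrially encoded genes, 1 point per mouse, colored by labelled group. The genes are ordered by their mean, from COX1 at 3240 to ND6 at 4.66 CPM per kilobase, and within each gene the 4 groups overlap except where mt-Rnr2 of βKlf6KO saline islets lies below control saline islets.

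Part of this order rests on sequence that the nuclear genome also carries. A search of GENCODE M21 transcripts at 95% identity or more over at least 200 bases found nuclear copies of COX1, ND2, ND4 and ND5, and none of the other 5 members. Copy Gm28439 on chromosome 1 matches ND4 at 100% over 876 of its 1378 bases, and Gm29216, also on chromosome 1, matches COX1 at 99.8% over 483 of 1545. A read from such a stretch fits both places. If no such read was counted, the mean level outside the copies was 2389 CPM per kilobase for ND4 and 4714 for COX1, which would put ND4 above ND2. COX1 also has a whole-length copy at 97.6% identity, Gm13340 on chromosome 2. This copy held 21 to 111 reads in βKlf6KO S961, 29 to 62 in βKlf6KO saline, 40 to 105 in control S961 and 55 to 154 in control saline libraries, against 70105 to 420013 COX1 reads over all libraries. The mitochondrial genes mt-Co2, mt-Atp8, mt-Atp6, mt-Co3, mt-Nd3 and mt-Nd4l are not among the listed genes, so they were not analysed here. The search found nuclear copies at 100% identity for mt-Co2, mt-Atp6, mt-Co3 and mt-Nd4l. It found one at 99.7% for mt-Nd3, and none for mt-Atp8, which has only 204 bases. Sequence outside annotated transcripts was not searched, so copies there would be missed, for the members as well. For mt-Atp8 this includes any copy between those of its neighbors mt-Co2 and mt-Atp6 on chromosome 1. Any part of these copies in the missing rows was not tested.

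After saline, the large ribosomal RNA mt-Rnr2 was lower in labelled βKlf6KO islets than in control islets, and was the single member to pass the test. Its lowest, median and highest levels were 414, 453 and 518 CPM in βKlf6KO saline islets, against 674, 946 and 1395 CPM in control saline islets. All 6 βKlf6KO libraries lay below all 6 control libraries. How many of all genes separate the groups in this way was not counted, here or for the rows and ratios below. The means were 8.84 ± 0.11 log2 CPM in βKlf6KO saline and 9.83 ± 0.40 in control saline islets (SD, n = 6 each). The log2 difference was -0.99 ± 0.27 (SE; limma adjusted p = 0.0433), a level of 0.502 times that of control islets with a 95% interval of the log2 difference from -1.55 to -0.44. An exact two-sided permutation test over mice, not adjusted for the number of tests, gave p = 0.00216, the smallest that 6 mice against 6 allow. It used the same values and reflects the separation given above. Over all genes 2.78% were called in this comparison, 2.09% as higher and 0.692% as lower, while 1 of 9 members was called, as lower. The median log2 difference was -0.55 over the 9 members and 0.00 over all 13591 genes tested.

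The call of mt-Rnr2 depended on single libraries, though its direction did not. With 1 library left out the log2 difference ran from -1.08 to -0.87 and the adjusted p from 0.0233 to 0.107. The call ended without control saline replicate 1, 2, 4, 5 or 6, without any 1 of the 6 βKlf6KO saline libraries, and without control S961 replicate 7 or βKlf6KO S961 replicate 2, 5 or 7. Without the 3 libraries that stood apart the difference was -0.87 (limma adjusted p = 0.0188). Sequencing lane was a possible batch. Within lanes 4, 5, 6 and 7 the difference was -0.79, -0.50, -1.30 and -1.21, each from 1 or 2 libraries per group.

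The other ribosomal RNA, mt-Rnr1, is cut from the same precursor and differed by -0.55 ± 0.26 after saline (SE; limma adjusted p = 0.337), which did not pass the test. Its lowest, median and highest levels were 132, 151 and 186 CPM in βKlf6KO saline islets, against 169, 205 and 422 CPM in control saline islets. In this gene 5 of 6 βKlf6KO libraries lay below all control libraries.

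Among the messengers after saline, ND2 had the largest difference, at -0.85 ± 0.36 (SE; limma adjusted p = 0.240), and did not pass the test. Its lowest, median and highest levels were 982, 1321 and 1659 CPM in βKlf6KO saline islets, against 1653, 2031 and 5218 CPM in control saline islets. In ND2 5 of 6 βKlf6KO libraries lay below all 6 control libraries, and the exact permutation test, not adjusted for the number of tests, gave p = 0.00433. Within lanes 4, 5, 6 and 7 the difference of ND2 was -0.21, -0.37, -1.09 and -1.31. The other subunits of complex I differed by -0.61 ± 0.34 for ND5 (adjusted p = 0.446), -0.57 ± 0.34 for ND1 (0.483), -0.54 ± 0.28 for ND4 (0.407) and -0.19 ± 0.42 for ND6 (0.897). CYTB of complex III differed by -0.49 ± 0.31 (0.532) and COX1 of complex IV by -0.42 ± 0.31 (0.620), all by limma. For these 6 genes the 95% intervals of the log2 difference included zero, and the lowest bound was that of ND5 at -1.31. Of 36 exact tests over members and comparisons 6 had an unadjusted p below 0.05, all 6 of them in this comparison. The exact test was run on the members only, so no share over all genes stands beside this count. Most members also correlate with each other, as given below. By limma 3 of 9 members were below that unadjusted p, as were 1953 of all 13591 genes.

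**Figure D2:**
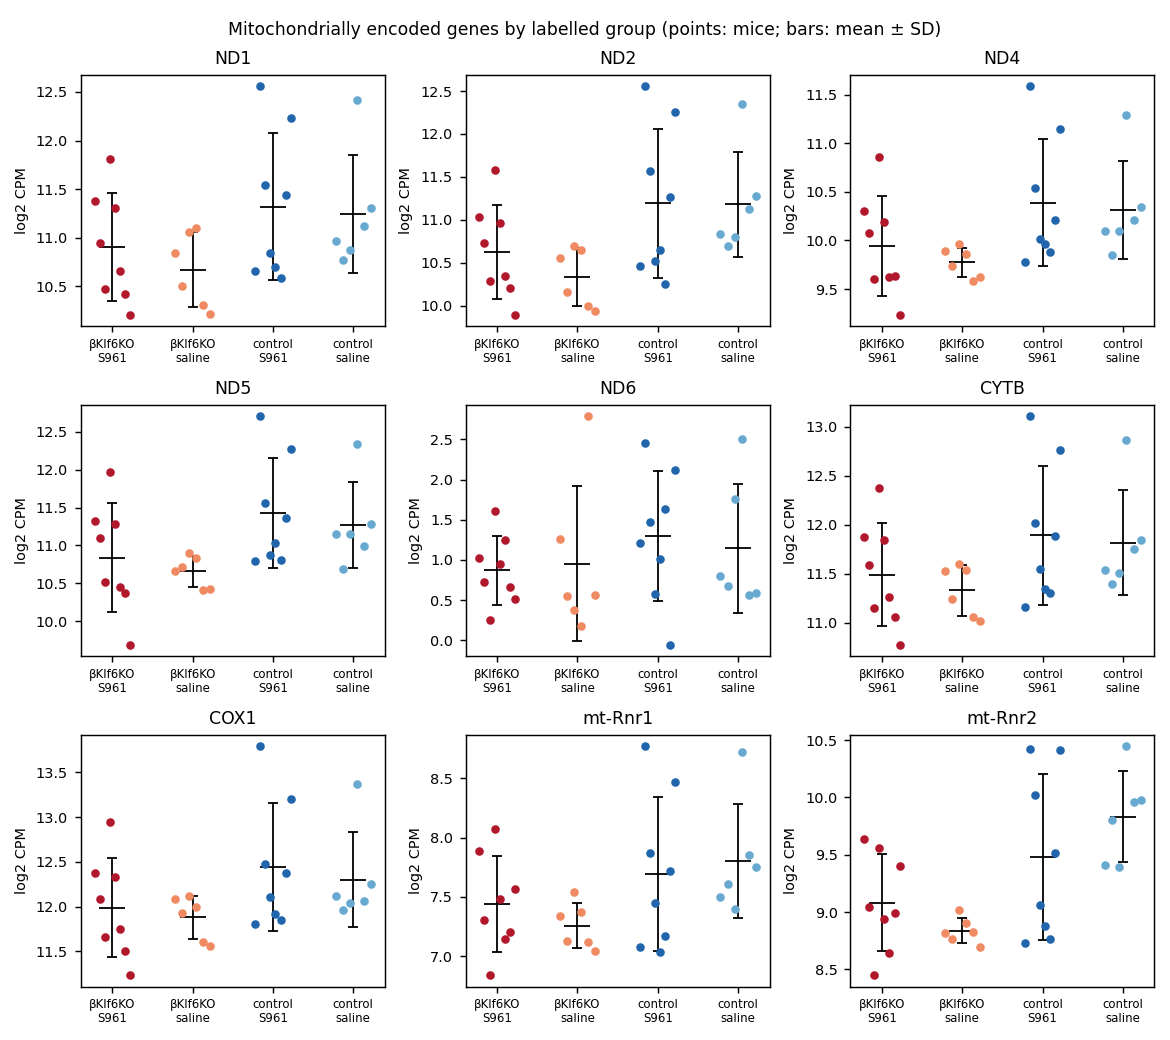
Log2 CPM of each of the 9 genes, 1 point per mouse, with the mean and SD of each labelled group as bars. In mt-Rnr2 the 6 βKlf6KO saline points lie below all 6 control saline points, and in most panels the highest control S961 and control saline points are libraries that stood apart on the first component.

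The levels of the remaining messengers overlapped between genotypes under both treatments. ND1, the first complex I gene on the plus strand, had a median of 1794 CPM (range 1183 to 3582) in βKlf6KO S961, 1644 CPM (1192 to 2201) in βKlf6KO saline, 2308 CPM (1537 to 6044) in control S961 and 2110 CPM (1752 to 5464) in control saline islets. ND4, a membrane subunit of complex I, had a median of 938 CPM (603 to 1857) in βKlf6KO S961, 891 CPM (768 to 997) in βKlf6KO saline, 1110 CPM (876 to 3081) in control S961 and 1139 CPM (924 to 2506) in control saline islets. For ND1 and ND4 alike 3 of 6 βKlf6KO saline libraries lay below all control saline libraries. Complex III and IV genes spread in the same way. CYTB had a median of 2763 CPM (1748 to 5320) in βKlf6KO S961, 2686 CPM (2074 to 3099) in βKlf6KO saline, 3388 CPM (2292 to 8817) in control S961 and 3211 CPM (2698 to 7458) in control saline islets. COX1 had a median of 3890 CPM (2412 to 7877) in βKlf6KO S961, 3981 CPM (3031 to 4440) in βKlf6KO saline, 4857 CPM (3580 to 14153) in control S961 and 4365 CPM (3994 to 10612) in control saline islets. In both genes the highest libraries were controls and the lowest was a βKlf6KO S961 library.

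The differences after saline rested in part on 1 control library. Control saline replicate 4 was the highest control saline library in all 9 members, and without it the difference was -0.62 for ND2, -0.40 for ND5, -0.36 for mt-Rnr1, -0.34 for ND4, -0.33 for ND1, -0.28 for CYTB and -0.21 for COX1. ND6 turned to 0.08 without it. After a correction of each library for a trend with transcript GC content, 4 members were called as lower. These were mt-Rnr2 at -0.84 (limma adjusted p = 5.76e-04), ND2 at -0.69 (adjusted p = 0.00998), mt-Rnr1 at -0.39 (adjusted p = 0.00910) and ND4 at -0.38 (adjusted p = 0.0272). In that fit 1371 genes were called over the whole table, against 378 without the correction.

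After S961, all 9 members were again below zero in labelled βKlf6KO against control islets, and 0 of 9 passed the test, where 4.36% of all genes were called, 2.35% as higher and 2.01% as lower. The complex I subunits differed by -0.59 ± 0.30 for ND5 (SE; limma adjusted p = 0.231), -0.56 ± 0.31 for ND2 (0.277), -0.45 ± 0.25 for ND4 (0.279), -0.43 ± 0.37 for ND6 (0.489) and -0.42 ± 0.29 for ND1 (0.393). COX1 differed by -0.45 ± 0.27 (0.320), CYTB by -0.40 ± 0.27 (0.375), mt-Rnr2 by -0.40 ± 0.24 (0.317) and mt-Rnr1 by -0.26 ± 0.23 (0.503). The median over members was -0.43, and over all genes 0.02. At an unadjusted p below 0.05 limma had 3107 genes in this comparison and 1953 in that after saline, and 0 of 9 members passed at that level after S961.

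The groups overlapped widely after S961. The lowest, median and highest levels of mt-Rnr2 were 350, 517 and 794 CPM in βKlf6KO S961 islets, against 426, 634 and 1377 CPM in control S961 islets. For ND5 they were 824, 1829 and 4027 CPM in βKlf6KO S961 islets, against 1777, 2367 and 6689 CPM in control S961 islets. Without the 3 libraries that stood apart, the differences were -0.23 for ND5, -0.16 for ND2, -0.12 for ND4, -0.10 for ND6, -0.10 for COX1, -0.08 for mt-Rnr2, -0.06 for ND1 and -0.05 for CYTB, all closer to 0, and that of mt-Rnr1 turned to 0.05. Within lanes 4, 5, 6 and 7 the mt-Rnr2 difference was 0.70, -0.67, -0.84 and -0.78.

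**Figure D3:**
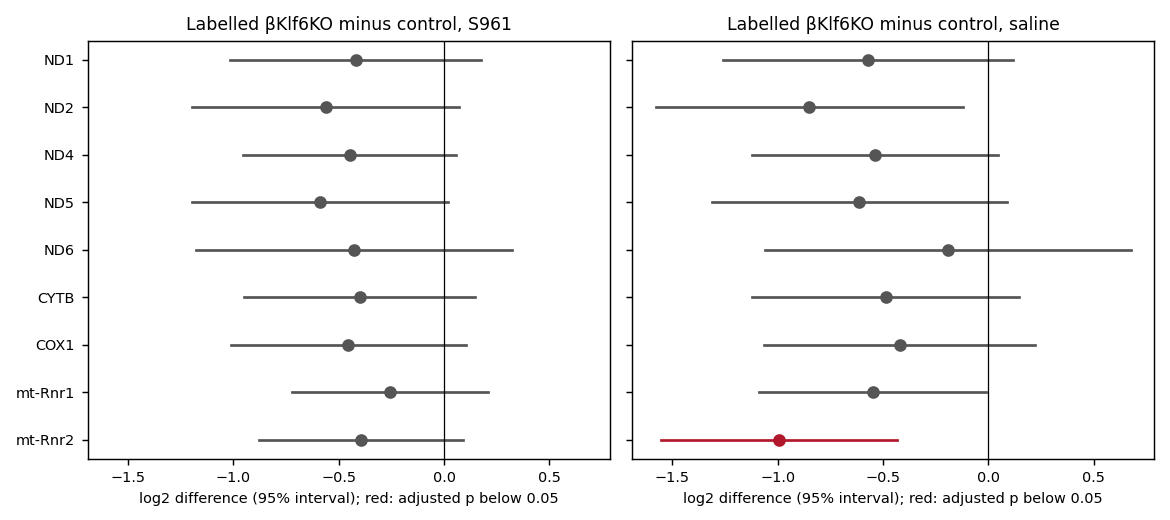
Log2 difference of each of the 9 genes, labelled βKlf6KO minus control, after S961 (left) and after saline (right), with 95% intervals from limma. All 18 points lie below 0, from -0.99 to -0.19, and the mt-Rnr2 point after saline, in red, is the one with an adjusted p below 0.05.

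None of the 9 genes passed the test between S961 and saline. In βKlf6KO islets S961 minus saline ran from -0.08 ± 0.40 for ND6 to 0.30 ± 0.33 for ND2 (SE), and 0 of 9 members were called, where 0% of all genes were called. In control islets it ran from -0.35 ± 0.26 for mt-Rnr2 to 0.16 ± 0.32 for ND5, with 0 of 9 members and 0% of all genes called. At an unadjusted limma p below 0.05 there were 413 genes in βKlf6KO islets and 104 in control islets, and no member. The 95% intervals of these differences reached from -0.89 to 0.98 in βKlf6KO islets and from -0.88 to 0.97 in control islets, taken over the 9 genes. The S961 response differed most between genotypes for mt-Rnr2, by 0.60 ± 0.36, and 0 of 9 members and 0% of all genes were called, with 350 genes at an unadjusted limma p below 0.05. The genotype comparison after saline and the S961 comparison in control islets share the control saline libraries, in which mt-Rnr2 was highest.

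The ratio of the 2 ribosomal RNAs, given without a test, separated the saline groups. The log2 ratio of mt-Rnr2 to mt-Rnr1 averaged 1.64 ± 0.15 in βKlf6KO S961, 1.58 ± 0.10 in βKlf6KO saline, 1.78 ± 0.19 in control S961 and 2.03 ± 0.19 in control saline islets (SD). It ran from 1.48 to 1.71 in βKlf6KO saline islets and from 1.72 to 2.23 in control saline islets, so that all 6 βKlf6KO libraries lay below all 6 control libraries. After S961 it ran from 1.45 to 1.83 in βKlf6KO islets and from 1.60 to 2.15 in control islets, which overlapped. Set against the mean of the 6 protein-coding members without ND6, mt-Rnr2 did not separate the groups. That log2 ratio averaged -1.88 ± 0.53 in βKlf6KO S961, -1.94 ± 0.18 in βKlf6KO saline, -1.97 ± 0.20 in control S961 and -1.52 ± 0.33 in control saline islets (SD). After saline it ran from -2.11 to -1.67 in βKlf6KO islets and from -1.99 to -1.09 in control islets. The groups overlapped after S961 too.

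Another ratio, chosen after its values were seen, is that of the neighbors ND2 and ND1, both subunits of complex I. The log2 ratio of ND2 to ND1 averaged -0.27 ± 0.06 in βKlf6KO S961, -0.34 ± 0.06 in βKlf6KO saline, -0.13 ± 0.15 in control S961 and -0.06 ± 0.05 in control saline islets (SD). After saline it ran from -0.45 to -0.28 in βKlf6KO islets and from -0.12 to 0.00 in control islets, without overlap. After S961 it ran from -0.35 to -0.19 in βKlf6KO islets and from -0.33 to 0.03 in control islets, which overlapped. The ratio of ND5 to ND1, which lie far apart on the plus strand, averaged between -0.06 and 0.11 in the 4 groups and overlapped in all comparisons.

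ND6 stood far below the other messengers, with 30 to 212 reads per library. Its log2 level minus the mean of the other 6 protein-coding members averaged -10.09 ± 0.38 in βKlf6KO S961, -9.82 ± 1.13 in βKlf6KO saline, -10.14 ± 0.68 in control S961 and -10.21 ± 0.53 in control saline islets (SD). The highest single value, -7.70, was that of βKlf6KO saline replicate 5, which held 212 ND6 reads. The ranges of all groups overlapped.

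**Figure D4:**
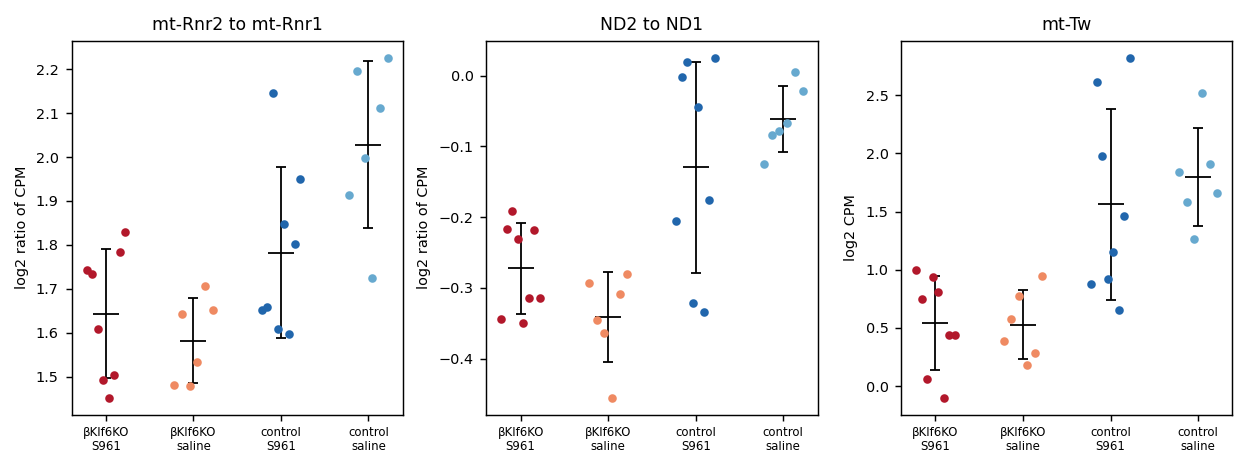
Left and middle, log2 ratio of CPM of mt-Rnr2 to mt-Rnr1 and of ND2 to ND1. Right, log2 CPM of the transfer RNA row mt-Tw. Points are mice and bars the mean and SD of each labelled group. In all 3 panels the 6 βKlf6KO saline points lie below the 6 control saline points, and after S961 the groups overlap.

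Of the 2 transfer RNA rows that follow ND2 and ND1, mt-Tw passed the test as lower in labelled βKlf6KO islets in both genotype comparisons. Over all genes 4.36% were called after S961, 2.01% as lower, and 2.78% after saline, 0.692% as lower. mt-Tw, which carries tryptophan, had a lowest, median and highest level of 1.13, 1.40 and 1.93 CPM in βKlf6KO saline islets, against 2.40, 3.37 and 5.72 CPM in control saline islets. After S961 these were 0.934, 1.52 and 1.998 CPM in βKlf6KO islets, against 1.57, 2.49 and 7.07 CPM in control islets. The groups did not overlap after saline and did after S961, and the share of all genes without overlap was not counted.

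The log2 difference of mt-Tw was -1.02 ± 0.27 after S961 (SE; limma adjusted p = 0.0337) and -1.27 ± 0.31 after saline (limma adjusted p = 0.0234), and both passed the test. With 1 library left out the call after saline ended without control saline replicate 1 or 4 or βKlf6KO saline replicate 4, with an adjusted p of up to 0.0613. That after S961 ended without control S961 replicate 2 or 3 or βKlf6KO S961 replicate 3, 6, 7 or 8. It also ended without the 3 libraries that stood apart, at -0.63 (adjusted p = 0.0618), and when the 2 groups compared were fitted alone (adjusted p = 0.136). Within lanes 4, 5, 6 and 7 the difference was 0.07, -1.10, -1.34 and -1.70 after S961 and -1.33, -0.58, -2.03 and -1.04 after saline. The mt-Tw row rests on few reads, 32 to 201 per library.

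mt-Ti, which carries isoleucine, fell below the filter on low values. It held 0 to 6 reads in the 8 βKlf6KO S961 libraries and 0 to 6 in the 6 βKlf6KO saline libraries, against 0 to 49 in control S961 and 8 to 52 in control saline libraries. After saline every βKlf6KO library was below every control library. In a fit without the filter mt-Ti had a limma adjusted p = 0.113 after S961 and 0.0510 after saline, so neither passed. Neither row is an estimate of the mature transfer RNA, which carries no tail of A and is shorter than a read.

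Across the 28 libraries, after subtracting group means, the messengers other than ND6 moved together. Pearson correlations among ND1, ND2, ND4, ND5, CYTB and COX1 were at least 0.953, and at least 0.907 without the 3 libraries that stood apart. mt-Rnr1 and mt-Rnr2 correlated at 0.943 with each other, and at 0.704 to 0.914 with these messengers. Without the 3 libraries the last range was 0.440 to 0.802, and the pair of ribosomal RNAs correlated at 0.917. ND6 correlated at 0.364 to 0.517 with the other members, and at -0.05 to 0.12 without the 3 libraries. These points share libraries and depth, and are given as a description.

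Nuclear genes correlated with the messengers about as highly. By the same measure, against the mean of the 7 protein-coding members over 28 libraries, the highest correlations were those of Ankib1 at 0.979, Dennd1b at 0.978, Med14 at 0.975, Ints2 at 0.974, Smchd1 at 0.973, Pbrm1 at 0.973, Rif1 at 0.973 and Fem1b at 0.973. Without the 3 libraries these were 0.934 to 0.949. The lowest were those of Myg1 at -0.968, Sdf2 at -0.968, Csnk2b at -0.968 and Bax at -0.969. The 8 highest had a GC content of 39.3% to 46.4% and the 4 lowest 51.5% to 63.5%. Of 10271 candidate genes 27.1% correlated above 0.8, and the median was 0.198.

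Levels of the members moved with those of genes of low GC content in general. Of the 9 members 8 fall in the lowest of 20 GC bins, and COX1 in the next. The median of the lowest bin, relative to its mean over libraries, was 1.22 on the log2 scale in control S961 replicate 2, 0.90 in control saline replicate 4 and 0.74 in control S961 replicate 8. In the same libraries the mean of the 6 protein-coding members without ND6 was 1.57, 1.30 and 1.17. The median of the highest GC bin was -2.20, -1.55 and -1.33 there. βKlf6KO S961 replicate 8 had the lowest messengers, at -0.97, with a lowest bin at -0.36 and ribosomal RNAs at 0.06. The part of this component in the genotype differences was not tested beyond the GC correction given above.

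**Figure D5:**
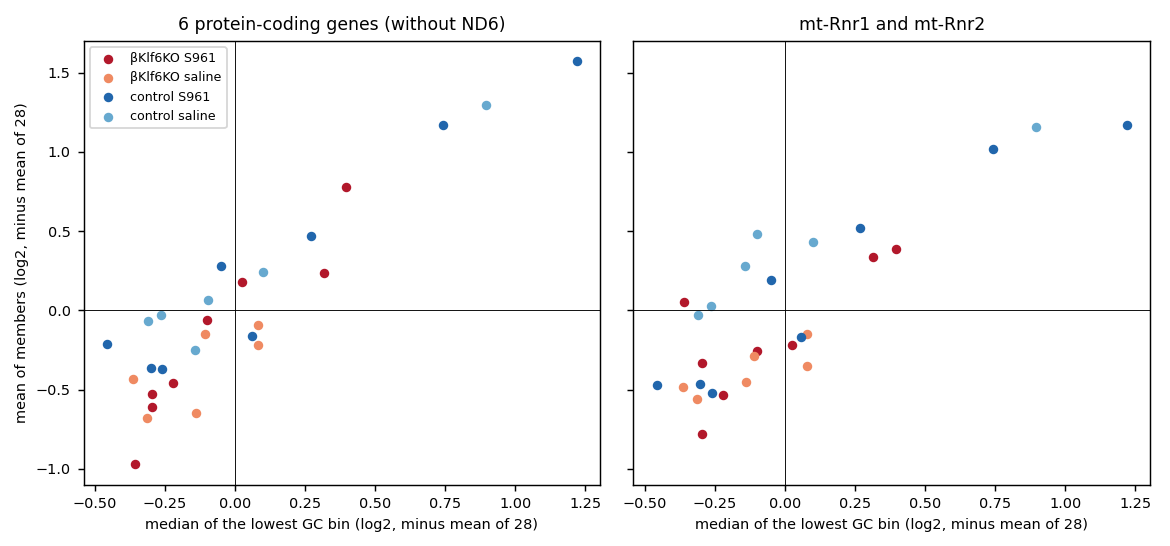
For each of 28 libraries, the mean log2 level of the 6 protein-coding genes without ND6 (left) and of mt-Rnr1 and mt-Rnr2 (right) against the median of genes in the lowest GC bin, all relative to the mean over libraries. The 3 control libraries at the upper right (lowest bin at 1.22, 0.90 and 0.74) are the highest in both panels.

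Lists of nuclear genes that serve mitochondrial gene expression are small, and over all genes 4.36% were called after S961 and 2.78% after saline, so counts of 0 or 1 say little of a list. Of 16 measured genes of mitochondrial DNA transcription and replication, such as the transcription factor Tfam and the polymerase Polrmt, 0 passed the test in either genotype comparison, with a median log2 difference of -0.04 after S961 and -0.01 after saline. Of 26 genes of mitochondrial RNA processing and decay, 0 passed after S961. After saline 1 was higher, Nsun4 by 0.31 ± 0.08 (SE; limma adjusted p = 0.0268), which acts on mitochondrial ribosomal RNA and in assembly of the ribosome. Of 76 mitochondrial ribosomal proteins 1 was higher after S961, Mrpl9 by 0.17 ± 0.05 (adjusted p = 0.0477), and 0 after saline.

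The same shares over all genes stand beside the calls among the nuclear partners of the members in complexes I, III and IV. Of 50 measured subunits 1 was higher after S961, the complex I subunit Ndufa1 by 0.68 ± 0.15 (SE; limma adjusted p = 0.0166), and 2 after saline, Ndufa1 by 0.97 ± 0.17 (adjusted p = 0.00131) and the complex III subunit Uqcrh by 0.38 ± 0.10 (adjusted p = 0.0372). None was lower, and the list medians were 0.08 after S961 and 0.10 after saline. Of 7 regulators of mitochondrial biogenesis 0 passed in either comparison. Of 28 other nuclear-encoded mitochondrial proteins 1 was lower after S961, the fumarate hydratase Fh1 by -0.41 ± 0.08 (adjusted p = 0.00631), and 0 were called after saline. Between S961 and saline, and in the difference of responses, no list had a call.

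After saline, where mt-Rnr2 was lower in labelled βKlf6KO islets, markers of proliferation and of some other cells were called as higher. Over all genes 2.78% were called in this comparison, 2.09% as higher and 0.692% as lower. All 6 proliferation markers were called higher in labelled βKlf6KO islets, with summed levels of 64.5 to 105 CPM in βKlf6KO saline islets, against 4.65 to 23.9 CPM in control saline islets. Of the macrophage markers 4 of 6 were higher, with summed levels of 82.8 to 580 CPM in βKlf6KO saline islets, against 65.0 to 103 CPM in control saline islets. Of the measured lymphocyte markers 2 of 5 were higher, with summed levels of 4.99 to 61.4 CPM in βKlf6KO saline islets, against 6.04 to 9.12 CPM in control saline islets. Of the fibroblast and stellate cell markers 2 of 6 were higher, with 26.4 to 131 CPM in βKlf6KO saline islets, against 16.3 to 34.9 CPM in control saline islets. Of the β-cell markers 2 of 10 were lower, while 0 of 5 α-cell, 0 of 8 acinar, 0 of 5 ductal and 0 of 5 endothelial markers passed the test. The part of these cells in the level of mt-Rnr2 was not tested.

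After S961, where mt-Tw was lower in labelled βKlf6KO islets, markers of proliferation and of some other cells were again called as higher. Over all genes 4.36% were called in this comparison, 2.35% as higher and 2.01% as lower. Of the proliferation markers 3 of 6 were higher, with summed levels of 29.9 to 55.1 CPM in βKlf6KO S961 islets, against 5.25 to 77.1 CPM in control S961 islets. Of the fibroblast and stellate cell markers 4 of 6 were higher, with 36.7 to 109 CPM in βKlf6KO S961 islets, against 14.8 to 54.0 CPM in control S961 islets. Of the β-cell markers 4 of 10 were lower and of the ductal markers 1 of 5 was higher, and 0 of 6 macrophage and 0 of 5 lymphocyte markers passed the test. The 8 acinar markers differed by 0.60 to 1.40, and 0 passed. Their summed levels were 22413 to 91986 CPM in βKlf6KO S961 islets, against 5216 to 33813 CPM in control S961 islets. Of 5 α-cell, 3 δ and PP cell and 5 endothelial markers 0 passed. The part of any of these markers in the level of mt-Tw was not tested.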

How the data were processed

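Islet RNA of 28 mice was measured by sequencing of polyadenylated RNA with 125-base single reads, per the labels' protocols. The authors deposited 1 matrix of log2 CPM, made with STAR 2.5.3a, HTSeq 0.9.1 and edgeR on GRCm38, per the submitters' processing notes. When the deposited log2 values were inverted as reads plus 0.5 over a scaled size, 100% of values came out whole within 0.05. No column was left unmatched (0). Coordinates and sequences came from GENCODE M21.

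The filter on low values (1 CPM or more in 6 or more libraries) kept 13591 genes. The deposited values were fitted in limma 3.58.1 (R 4.3.3) with group means of all 28 libraries, empirical Bayes moderation with an intensity trend, and 5 contrasts. Tests were two-sided. Calls were made at an adjusted p below 0.05 (Benjamini-Hochberg over all genes kept). Single members were also compared by exact permutation of mice. The p-values thus measure the spread between mice.

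The members, gene lists and tests were chosen with earlier results of these data known. Named genes were the 9 members and other listed rows on chromosome M or copying it. Added were up to 3 called genes per pathway list, the 8 highest and 4 lowest correlations with the members among genes of at least 4 CPM, and Klf6, Ins1 and Ins2. Ins1 differed between genotypes by -0.31 after S961 and 0.55 after saline, and Ins2 by 0.31 and 0.21, none past the test. Nuclear copies were searched with BLAST 2.17.0. The fit was also run on simulated data, whose outcome is not given here. Mice were treated as unpaired. Same-numbered mice correlated at -0.71 to 0.56, which cannot settle whether replicate numbers pair mice.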

Additional observations from a re-analysis of the deposited data

Results flagged for a closer look

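In 64 groups of values, 9 had a library set far from the others by Dixon's criterion at the 95% level, which chance gives in about 1 group in 20. Of these 8 were 1 library, control saline replicate 4, which was the highest of its group at 12.42 log2 CPM for ND1, 12.35 for ND2, 11.29 for ND4, 12.35 for ND5, 12.86 for CYTB, 13.37 for COX1 and 8.72 for mt-Rnr1. The members took 3.58% of its listed reads, where the next control saline library had 1.85%. It is 1 of the 3 libraries that stood apart on the first principal component. The other was βKlf6KO saline replicate 5, in which ND6 minus the mean of the other protein-coding members was -7.70, where the next library of its group had -9.67. Its 212 ND6 reads were the most of any library.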

How the results depend on the processing

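Alternatives were a floor at log2(CPM + 1), no filter, a filter at 5 CPM, quantile normalization, rescaling to reads outside the members, lane as a covariate, a replicate block, library weights, robust moderation, a fit without 3 libraries, a GC correction, only the groups compared, exact tests and each library left out. For mt-Tw they were added after its values were seen. After saline the 1 member called became 0 with a filter at 5 CPM, where 8 members were measured, and 4 after the GC correction; without 1 library the count was 0 to 1. It stayed 0 in the other 4 comparisons. mt-Rnr2 was called in 10 of 12 other settings and in 13 of 28 fits with 1 library left out, with adjusted p from 1.91e-04 to 0.107. Exact tests put ND4, ND5 and CYTB after saline below an unadjusted p of 0.05. No called value changed sign. The counts over all genes moved more. After saline 378 became 3018 with library weights, 687 in the fit that leaves 3 libraries out, 117 under the stricter filter and 1371 after the GC correction (785 higher and 586 lower, where 284 and 94 were without it), and after S961 593 became 392 with quantile normalization, 35 with only the groups compared and 2550 after the GC correction (1190 higher and 1360 lower, where 320 and 273 were without it). S961 against saline in βKlf6KO islets gave 2 genes with library weights.

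With the replicate block 0 members were called after saline, at an adjusted p = 0.0518 for mt-Rnr2. Same-numbered mice of both genotypes correlated above 0.1 in 1 of 6 pairs after saline and 2 of 8 after S961. Between treatments it was 3 of 6 pairs in βKlf6KO and 2 of 6 in control islets. These values cannot settle whether the numbers pair mice.

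Depth limits ND6 and the transfer RNA rows. How reads were shared between overlapping genes and nuclear copies is not stated in the sources used here. The cause of the moved counts was not tested.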

Other observations

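The nuclear copy Gm28438 on chromosome 1 reads almost as the mitochondrial gene mt-Nd3, with 1 difference in 345 bases, T3C counted from the first base of mt-Nd3 (position 9461 of chromosome M). Its row split the libraries by reads in a way that no label gives. It held 2 to 6 reads in 7 libraries, which were βKlf6KO S961 replicates 2, 3 and 7, βKlf6KO saline replicates 5 and 6, control S961 replicate 3 and control saline replicate 5, and 26 to 171 reads in the other 21. The starts of both genes follow, with the base that differs in capitals (chrM:9459-9476 plus strand and chr1:24613102-24613119 minus strand), because a read over it fits one place better than the other.
mt-Nd3: atTaacctgtacactgtt
Gm28438: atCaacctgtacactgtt

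Gm28437, a copy of mt-Co3 on the same chromosome, held 9 to 67 reads in βKlf6KO S961, 5 to 28 in βKlf6KO saline, 10 to 35 in control S961 and 11 to 60 in control saline libraries, without such a gap. Gm13341, a copy of mt-Co2 on chromosome 2, held 27 to 148 reads. Neither passed the test in a genotype comparison, that of Gm28437 being fitted without the filter on low values.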
